A study of Saccharomyces cerevisiae with 14 samples.

Results

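The genes described here encode the subunits of yeast RNA polymerases I, II and III, together with MAF1, the repressor of polymerase III. They were chosen by name: every gene symbol made of RPA, RPB or RPC and a number, plus RPO21, RPO26, RPO31, RET1 and MAF1. The rule found 32 of the 5886 genes in the table, and all 32 were among the 5727 tested, which averaged 1 FPKM (fragments per kilobase of transcript, scaled to the depth of the library) or more over the libraries. Of the 32, 7 are specific to Pol I, 7 to Pol II and 10 to Pol III. A further 2 are shared by Pol I and Pol III, 5 are shared by all 3 enzymes, and MAF1 is no subunit. The study looked for genes that change replicative lifespan in Saccharomyces cerevisiae and profiled RNA from 4 mutants and a WT strain. Haploid cells of the BY4741 background (labelled S288C) were grown in rich YPD medium with glucose and harvested in log phase. MSB3Δ, NIT3Δ and HSP26Δ each lack a gene, for a GTPase-activating protein of vesicle traffic, a nitrilase family member and a small heat-shock protein, respectively. TYS1 DAmP keeps the essential tyrosyl-tRNA synthetase gene with a drug-resistance cassette behind its coding sequence, which lowers its transcript. Each mutant had 3 libraries labelled as biological replicates, and 2 WT libraries were analysed here, although the series record describes 3 in each group. Whether a mutant was a single clone is not given in the sources used here.

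RNA polymerase I transcribes the ribosomal DNA into the large ribosomal RNA precursor, RNA polymerase II makes messenger RNAs, and RNA polymerase III makes transfer RNAs and 5S ribosomal RNA. Each enzyme has a pair of large catalytic subunits, a stalk of paired small subunits, a zinc-ribbon subunit and an assembly heterodimer, and all of them hold the same small common subunits. In growing yeast most transcription serves ribosome synthesis, and the genes of Pol I and Pol III belong to the ribosome biogenesis genes that are known to respond to nutrients and stress. Many of these genes carry a PAC box, a promoter element named after polymerases A and C, the older names of Pol I and Pol III, often beside an RRPE (ribosomal RNA processing element).

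The promoters were read from the RefSeq sequence of the R64 genome, the build named in the submitters' processing notes, in a window from 250 bases before to 50 bases after the gene start. The PAC box was searched as GATGAG and RRPE as AAAAATTTT, on both strands and in the whole window, overlapping hits included. The PAC box was present in 6 of 7 promoters of Pol I genes, 8 of 10 of Pol III genes and both promoters of the subunits that these enzymes share. It was present in 1 of 7 promoters of Pol II genes, there inside the RPB2 coding sequence, in none of the 5 promoters of the common subunits and not in that of MAF1. Among 6001 protein-coding genes, 20.4% of windows held it. RRPE was in 6 of 7 Pol I, 5 of 10 Pol III and 2 of 7 Pol II promoters and in 6.98% of all. Both motifs stood together in 6 of 7 Pol I and 5 of 10 Pol III promoters, in none of the Pol II promoters, and in 3.58% of all. In 16 genes a PAC box ended before the gene start, and its first base lay between 59 and 245 bases upstream (median 122, 19 hits). The stretches below are shown because they let the PAC box (capitals) be compared between the 2 largest subunits of Pol I (RPA190 and RPA135), its heterodimer and stalk subunits (RPA34 and RPA43), an initiation and a stalk subunit of Pol III (RPC82 and RPC25) and the assembly subunits of both enzymes (RPC40 and RPC19), each read 5′ to 3′ on the strand that carries the box.
RPA190 (chrXV:960798-960837, minus strand): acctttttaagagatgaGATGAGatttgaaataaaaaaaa
RPA135 (chrXVI:581283-581322, plus strand): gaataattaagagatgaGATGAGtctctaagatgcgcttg
RPA34 (chrX:140310-140349, plus strand): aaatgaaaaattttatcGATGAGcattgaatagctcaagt
RPA43 (chrXV:960342-960381, minus strand): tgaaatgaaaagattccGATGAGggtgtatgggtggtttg
RPC82 (chrXVI:919141-919180, plus strand): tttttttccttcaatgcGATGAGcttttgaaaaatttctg
RPC25 (chrXI:176653-176692, plus strand): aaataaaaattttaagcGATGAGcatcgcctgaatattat
RPC40 (chrXVI:746896-746935, minus strand): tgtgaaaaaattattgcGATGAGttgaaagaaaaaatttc
RPC19 (chrXIV:412627-412666, plus strand): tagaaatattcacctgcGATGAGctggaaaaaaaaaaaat
In RPA190 and RPA135, and in the Pol III gene RPC53, the 6 letters occur as 2 copies that overlap by 1 base. RPA135 has a further copy at the gene start. RPC82, RPC25, RPC40 and RPC19 share the longer form GCGATGAG, which 6 of the 32 members and 3.93% of all windows held. RPA43 and RPA190 lie back to back on chromosome XV with 804 bases between them.

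The Pol I and Pol III genes with no PAC box in the window were RPA12, RPC17 and RPC11. The RPA12 and RPC17 promoters are shown because these genes had the lowest mean fold changes of all members, and the RPA49 promoter because it has the box (capitals) and RRPE beside it. Each is written on the strand of its gene.
RPA12 (chrX:554945-555244, plus strand): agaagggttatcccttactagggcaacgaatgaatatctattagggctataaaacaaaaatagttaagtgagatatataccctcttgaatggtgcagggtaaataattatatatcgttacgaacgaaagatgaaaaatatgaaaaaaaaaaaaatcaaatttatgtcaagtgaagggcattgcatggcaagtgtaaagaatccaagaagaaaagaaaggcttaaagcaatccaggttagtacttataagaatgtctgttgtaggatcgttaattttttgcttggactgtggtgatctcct
RPC17 (chrX:414721-415020, minus strand): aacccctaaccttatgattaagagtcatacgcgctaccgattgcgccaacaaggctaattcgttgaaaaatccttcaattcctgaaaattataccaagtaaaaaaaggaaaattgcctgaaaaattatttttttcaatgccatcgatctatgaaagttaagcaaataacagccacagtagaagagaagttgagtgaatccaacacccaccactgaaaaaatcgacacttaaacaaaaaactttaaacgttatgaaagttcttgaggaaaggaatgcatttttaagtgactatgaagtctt
RPA49 (chrXIV:182559-182858, minus strand): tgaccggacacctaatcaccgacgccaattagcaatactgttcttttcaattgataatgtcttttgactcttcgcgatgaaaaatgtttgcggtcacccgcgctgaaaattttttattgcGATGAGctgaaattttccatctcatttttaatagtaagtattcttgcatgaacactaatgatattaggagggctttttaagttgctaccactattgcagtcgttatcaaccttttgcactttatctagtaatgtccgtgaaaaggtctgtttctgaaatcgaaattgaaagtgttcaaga
A match in such a window is a description of its letters, and no match says nothing about the factor that binds the box.

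**Figure D1:**
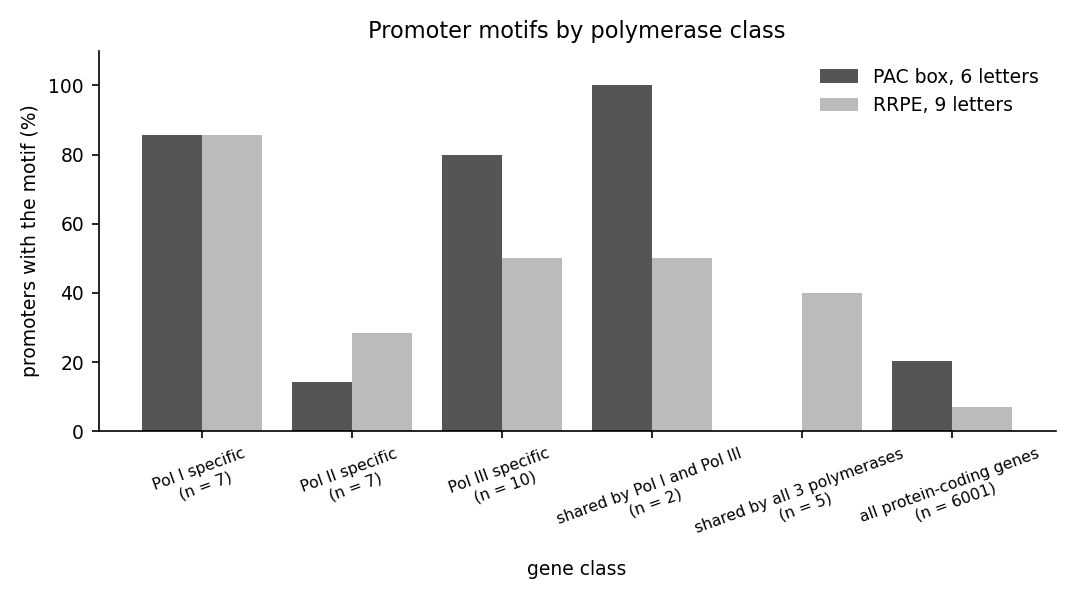
Share of promoters (vertical axis, percent) with the PAC box (dark bars) or RRPE (light bars) in a 300-base window, for the subunits specific to each polymerase, the shared subunits and all protein-coding genes (horizontal axis). The PAC box is in 85.7% of Pol I and 80.0% of Pol III promoters and in 20.4% of all.

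Relative depth was estimated from the steps of the lowest FPKM values, and came out between 0.887 and 1.07. Only depths not far from equal were searched, so a library of very different depth could not have been found. Steps and depths were fitted to these same values, of which 85.6% then lay within 0.15 of a whole number of fragments. That share is thus no independent check. FPKM gives no read counts. No pair of libraries was a copy of another, and at most 0.279% of values were identical between any pair. MSB3, NIT3 and HSP26 were at or under 0.28 FPKM in their own deletion strains, and TYS1 was at 13.7% of WT in TYS1 DAmP. This TYS1 level is lower than the one the paper reports for the DAmP strain by RT-qPCR, which is another measure. The mating-type a receptor gene STE2 was present in every library, at 90.5 to 668 FPKM, while the α-factor gene MF(ALPHA)1 was at 2.13 or less. Other mating-type markers were less clear. The α receptor gene STE3 was at 4.99 to 19.5 FPKM and BAR1, a gene of mating-type a cells, at 3.61 to 176, so their ranges overlapped. MET17, deleted in BY4741, was at 0.03 FPKM or less. HIS3, which the background carries as a partial deletion, was at 122 to 231 FPKM. The 136 genes of cytosolic ribosomal proteins took 47.0% and 48.4% of all FPKM in the WT libraries and less in all 12 mutant libraries, with the lowest shares, 18.1% and 30.1%, in NIT3Δ 2 and MSB3Δ 1. In the same libraries HSP26, whose transcript is known to rise when growth slows, was at 3627 and 1329 FPKM, against 77.5 and 94.5 in WT. Long genes were higher relative to short genes in HSP26Δ 1, where the medians of the longest and the shortest of 5 length bins differed by 0.66 on the log2 scale, against −0.24 to 0.29 in the other libraries. Bulk RNA cannot tell fewer cells with a transcript from less of it in each cell.

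Levels in WT differed more between subunits of a given enzyme than between the enzymes. Means over the 2 WT libraries are given as FPKM, which is per length. RPC10, a common zinc-binding subunit, was the most abundant member at 1439 ± 29.2 FPKM (SD, n = 2), and RPO31, the largest subunit of Pol III, the least at 15.6 ± 0.410 FPKM. Among Pol I genes the mean ran from 43.7 FPKM for the largest subunit RPA190 to 451 for RPA12, among Pol II genes from 33.2 for the largest subunit RPO21 to 575 for RPB11, and among Pol III genes from 15.6 for RPO31 to 139 for RPC25. The medians of the Pol I, Pol II and Pol III genes were 233, 136 and 89.0 FPKM, against 43.7 for all genes tested. In each enzyme the 2 catalytic subunits were the lowest of its specific genes, and these are also the longest genes. Their order was RPO31, RET1 at 31.2 ± 4.41, RPO21 at 33.2 ± 1.41, RPA190 at 43.7 ± 3.70, RPB2 at 49.0 ± 2.63 and RPA135 at 73.0 ± 1.85 FPKM. The WT ranges of RET1 and RPO21 overlapped, so these neighbours did not differ beyond their spread, while the ranges of the other neighbours were apart. RPA14 and RPA12, at 446 ± 5.78 and 451 ± 52.7 FPKM, overlapped as well, and so did RPC31 and RPC34, at 128 ± 10.4 and 129 ± 6.06 FPKM.

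The genes of the 3 polymerases stood at different levels relative to WT in the mutants. In each library the log2 ratio of a gene's (FPKM + 1) to its WT mean was taken, and the median over the genes specific to an enzyme. For Pol I this median lay below both WT libraries in 12 of 12 mutant libraries, from −0.12 in MSB3Δ 2 to −1.44 in NIT3Δ 2. For Pol III it was −0.02 to −0.57 and lay below both WT libraries in 9 of 12. For Pol II it was −0.15 to 0.28 and lay above both WT libraries in 10 of 12. The WT libraries themselves were within 0.04 of 0. The median over all genes tested ran from −0.07 to 0.63, and was highest, at 0.63 and 0.41, in NIT3Δ 2 and MSB3Δ 1. Relative to it, the Pol I median was lower than in WT in 12 of 12 libraries (−0.20 to −2.07) and the Pol III median in 12 of 12 (−0.08 to −1.20), while the Pol II median was lower in 8 of 12 and higher in 4 of 12 (−0.49 to 0.06).

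Within a library, the difference of the Pol I and Pol II medians does not depend on the scaling of that library. In MSB3Δ it was −0.39 ± 0.35 (SD, n = 3) and in NIT3Δ −0.76 ± 0.71. HSP26Δ gave −0.32 ± 0.20 and TYS1 DAmP −0.51 ± 0.46, and the WT libraries lay within 0.02 of 0. The largest differences in 3 of the groups came from NIT3Δ 2 (−1.58), TYS1 DAmP 1 (−1.03) and MSB3Δ 1 (−0.80). Taken between the medians of the fitted fold changes, MSB3Δ had a difference of −0.37, NIT3Δ of −0.73, HSP26Δ of −0.29 and TYS1 DAmP of −0.59. This difference was −0.11 without MSB3Δ 1 and −0.57 without MSB3Δ 3, −0.35 without NIT3Δ 2 and −0.21 without TYS1 DAmP 1. The difference within a library was below both WT libraries in each of the other 9 mutant libraries too, where it ran from −0.15 to −0.55. Pol III lay between, with differences from Pol II of −0.20 ± 0.11 (SD, n = 3) for MSB3Δ and −0.34 ± 0.32 for NIT3Δ, and of −0.16 ± 0.19 for HSP26Δ and −0.33 ± 0.33 for TYS1 DAmP. Pol I was below Pol III in all mutant libraries except MSB3Δ 2, where they differed by 0.01. These medians are descriptions over few genes of a library and carry no test. In NIT3Δ 2 and MSB3Δ 1 they go with the low ribosomal protein share and the high HSP26 given above. HSP26 was also above WT in MSB3Δ 2 and NIT3Δ 3, at 589 and 450 FPKM. There the share was 43.7% and 43.4%, and Pol I minus Pol II was only −0.15 and −0.39. The part of the share or of HSP26 in the result was not tested. In TYS1 DAmP 1 the share was 40.0% and HSP26 was at 184 FPKM.

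**Figure D2:**
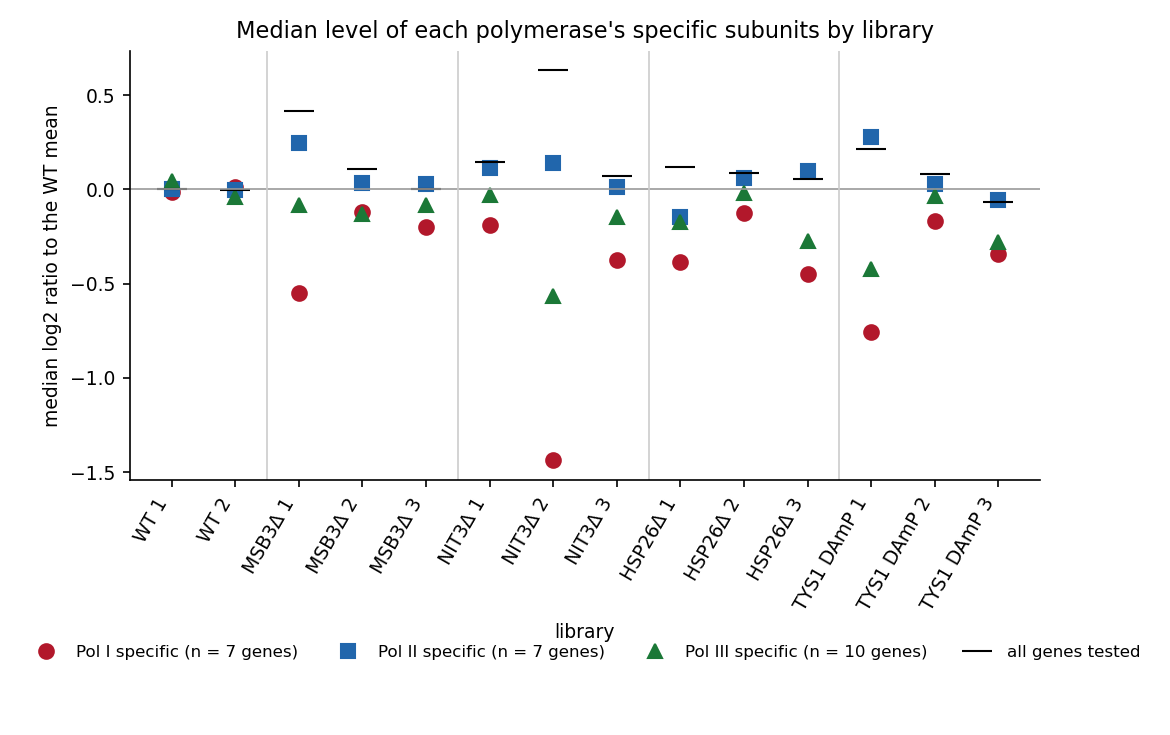
Median log2 ratio to the WT mean (vertical axis, log2(FPKM + 1) scale) of the genes specific to Pol I (circles, n = 7), Pol II (squares, n = 7) and Pol III (triangles, n = 10) in each of the 14 libraries (horizontal axis); bars mark the median of all 5727 genes tested. The circles lie below 0 in all 12 mutant libraries and reach −1.44 in NIT3Δ 2.

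Among the 7 Pol I genes, 4 (RPA12, RPA34, RPA49 and RPA43) lay below both WT libraries in every mutant library, against 2.78% of all genes tested. Of the 136 genes of cytosolic ribosomal proteins, 32 did so. The median mean fold change of those 136 genes over the 4 mutants was −0.41, against −0.47 for the Pol I genes. RPA12, the zinc-ribbon subunit that takes part in RNA cleavage and termination, had the lowest mean fold change of all 32 members. It stood at 488 and 413 FPKM in WT, at 278, 317 and 342 in MSB3Δ, at 342, 148 and 275 in NIT3Δ, at 193, 359 and 261 in HSP26Δ and at 265, 344 and 323 in TYS1 DAmP. No mutant library reached the lower WT value, and NIT3Δ 2 and HSP26Δ 1 were lowest. RPA34, which pairs with RPA49 in a heterodimer that aids initiation and elongation, stood at 311 and 321 FPKM in WT, at 237, 219.6 and 230.1 in MSB3Δ, at 259.5, 114 and 224 in NIT3Δ, at 162, 308 and 271 in HSP26Δ and at 186, 255 and 195 in TYS1 DAmP. HSP26Δ 2, at 308, came closest to WT, and the MSB3Δ libraries were the most alike. RPA49 itself stood at 220.4 and 245 FPKM in WT, at 158, 176 and 202 in MSB3Δ, at 204, 87.6 and 173 in NIT3Δ, at 155, 219.9 and 169.8 in HSP26Δ and at 107, 192 and 162 in TYS1 DAmP. Here HSP26Δ 2 missed the lower WT library by under 1 FPKM. RPA43, the stalk subunit that binds the initiation factor Rrn3, stood at 177 and 173 FPKM in WT, at 118, 164 and 162 in MSB3Δ, at 153, 59.0 and 134 in NIT3Δ, at 134, 156 and 121 in HSP26Δ and at 75.3, 155 and 138 in TYS1 DAmP. Its 2 lowest libraries were NIT3Δ 2 and TYS1 DAmP 1.

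The remaining Pol I genes overlapped with WT in some mutants. The catalytic subunit RPA190 was at 46.3 and 41.1 FPKM in WT, at 39.4, 43.6 and 35.9 in MSB3Δ, at 43.5, 29.0 and 35.2 in NIT3Δ, at 42.3, 38.0 and 38.8 in HSP26Δ and at 26.2, 43.2 and 43.3 in TYS1 DAmP, so that each mutant overlapped with WT. RPA135, the second catalytic subunit, was at 71.7 and 74.3 FPKM in WT and lay below both in 9 of 12 mutant libraries, with 26.3 in NIT3Δ 2, 44.5 in MSB3Δ 1 and 45.8 in TYS1 DAmP 1. RPA14, the other stalk subunit, did not follow the rest: at 442 and 449.9 FPKM in WT, it was above both in MSB3Δ (464, 466 and 489) and below both in NIT3Δ (384, 236 and 372), and HSP26Δ and TYS1 DAmP spread to both sides (297 to 482 and 264 to 556). RPA14 overlaps by 8 of its 414 bases with YDR157W on the same strand, and the part of this in its values was not tested.

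**Figure D3:**
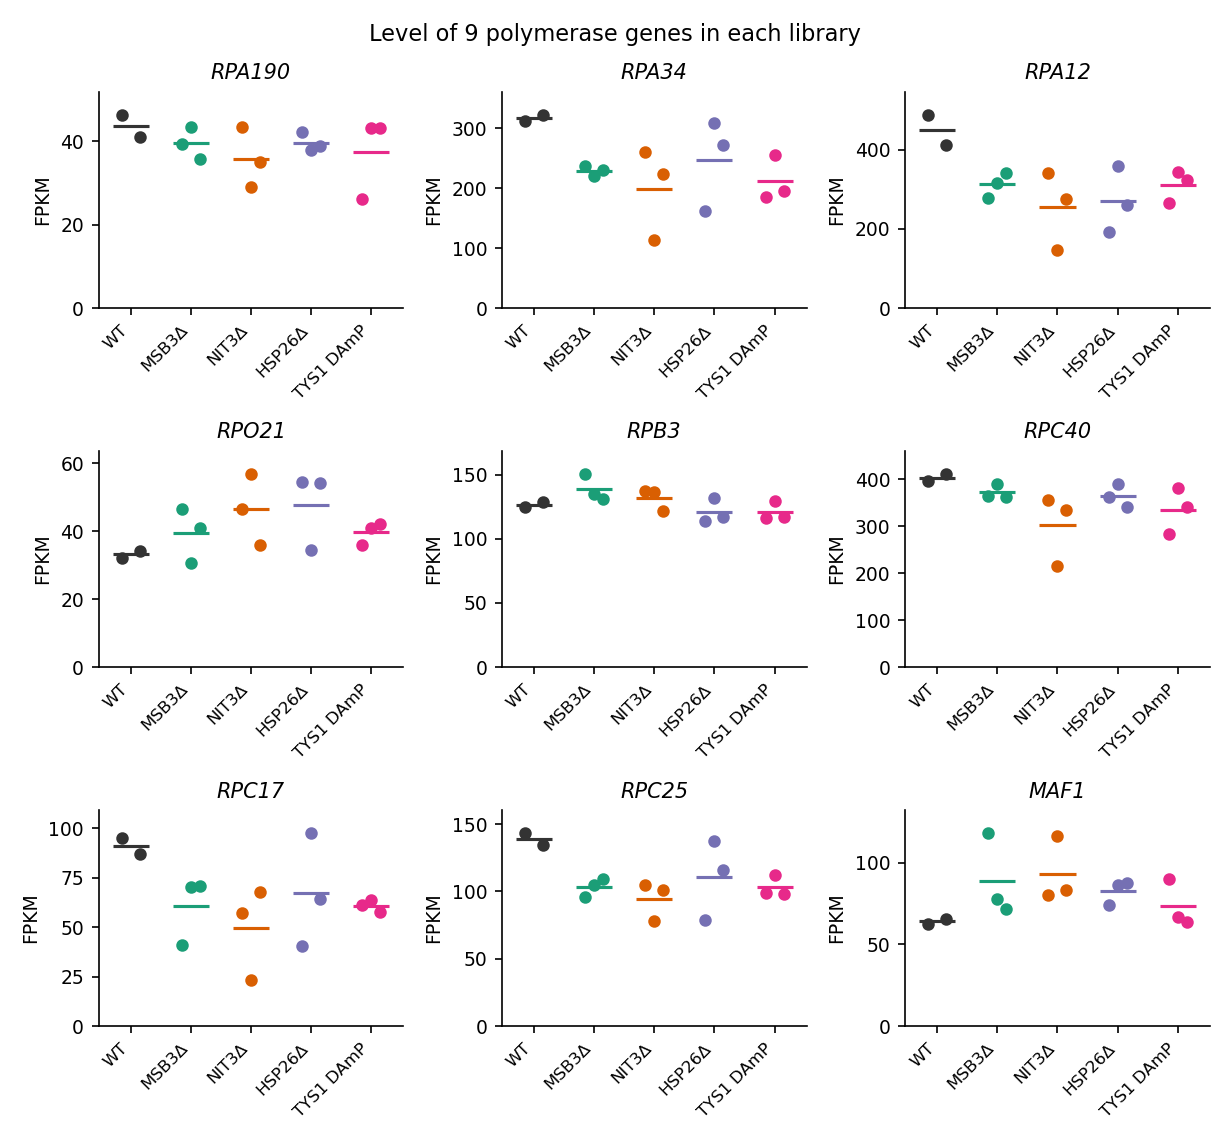
FPKM (vertical axes, each from 0) of 8 subunit genes and MAF1 in the 14 libraries, grouped by strain (horizontal axes); each point is a library and each line the mean of a strain. All mutant points of RPA12, RPA34 and RPC40 lie below both WT points, and 11 of 12 mutant points of MAF1 lie above them.

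Few of these differences passed a test. limma was run on log2(FPKM + 1) over all 5727 genes for each mutant and WT. Calls needed an unadjusted p under 0.05 together with a fold change of more than 1.5 (higher) or less than 0.7 (lower). The 4 comparisons share the 2 WT libraries, so they are not independent. In MSB3Δ, RPA12 was the only member called, and it was lower, with a log2 fold change of −0.53 ± 0.20 (SE, adjusted p = 0.65), where 0.559% of all genes tested were called lower and 3.93% higher. All 3 libraries lay below both WT libraries for 10 of 32 members, against 8.08% of all genes tested, and above them for 3, against 26.1%. In NIT3Δ the only member called was RPC25, a Pol III stalk subunit, at −0.56 ± 0.22 (SE, adjusted p = 0.56), where 0.506% were called lower and 4.31% higher. There 16 of 32 members lay below both WT libraries, against 9.57% of all genes, and 2 above, against 38.6%. In HSP26Δ RPA12 alone was called, at −0.77 ± 0.26 (SE, adjusted p = 0.28), where 2.41% were called lower and 5.67% higher. Below both WT libraries were 10 members, against 13.2% of all genes, and above were 4, against 27.6%. In TYS1 DAmP RPA34, RPA12 and the Pol III stalk subunit RPC17 were called lower, at −0.59 ± 0.19, −0.54 ± 0.18 and −0.57 ± 0.15 (SE), where 1.64% were called lower and 3.34% higher. Their adjusted p were 0.61, 0.61 and 0.52. There 12 members lay below both WT libraries, against 12.4% of all genes, and 1 above, against 20.4%.

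No member was called higher in any of the 4 comparisons, and no member had an adjusted p under 0.05 in limma. Of all genes tested, 0.0175% had such an adjusted p in MSB3Δ and 0.0175% in NIT3Δ, 0.0349% had it in HSP26Δ, and 0.0873% had it in TYS1 DAmP. An unadjusted p under 0.05 was reached by 3 of 32 members in MSB3Δ, against 6.44% of all genes tested, and by 1 in NIT3Δ, against 5.05%. In HSP26Δ 2 members reached it, against 15.6%, and in TYS1 DAmP 7 members, against 7.74%. The calls rested on few libraries. In MSB3Δ, where 257 of all genes were called, no member was called without WT 1, WT 2, MSB3Δ 1 or MSB3Δ 2 (127, 101, 178 and 269 of all genes). RPC17 joined RPA12 without MSB3Δ 3, in a fit that called 1017 of all genes. In NIT3Δ, where 276 of all genes were called, no member was called without WT 1 or WT 2 (47 and 57 of all genes). RPA12 and RPC17 were called without NIT3Δ 2 (312 of all genes), RPC17 alone without NIT3Δ 3 (352), and RPA12, RPA34, RPA49 and RPC19 without NIT3Δ 1 (550), so that RPC25 was called in none of these. In HSP26Δ, where 463 of all genes were called, no member was called without WT 1 or HSP26Δ 3 (291 and 413 of all genes). Without HSP26Δ 2 there were 8 (RPO21 higher, and RPA12, RPA49, RPB8, RPC11, RPC17, RPC25 and RPC34 lower), in a fit that called 948 of all genes. RPA12 and RPO21 then had an adjusted p under 0.05, as did 468 of the 5727 genes, in place of 2. In TYS1 DAmP, where 285 of all genes were called, no member was called without WT 1 (130 of all genes). RPC17 alone was called without WT 2, TYS1 DAmP 1 or TYS1 DAmP 3 (138, 248 and 362 of all genes). Its adjusted p was under 0.05 without TYS1 DAmP 1, as were those of 180 of all genes in place of 5. RPA49 joined the 3 called members without TYS1 DAmP 2 (452 of all genes).

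**Figure D4:**
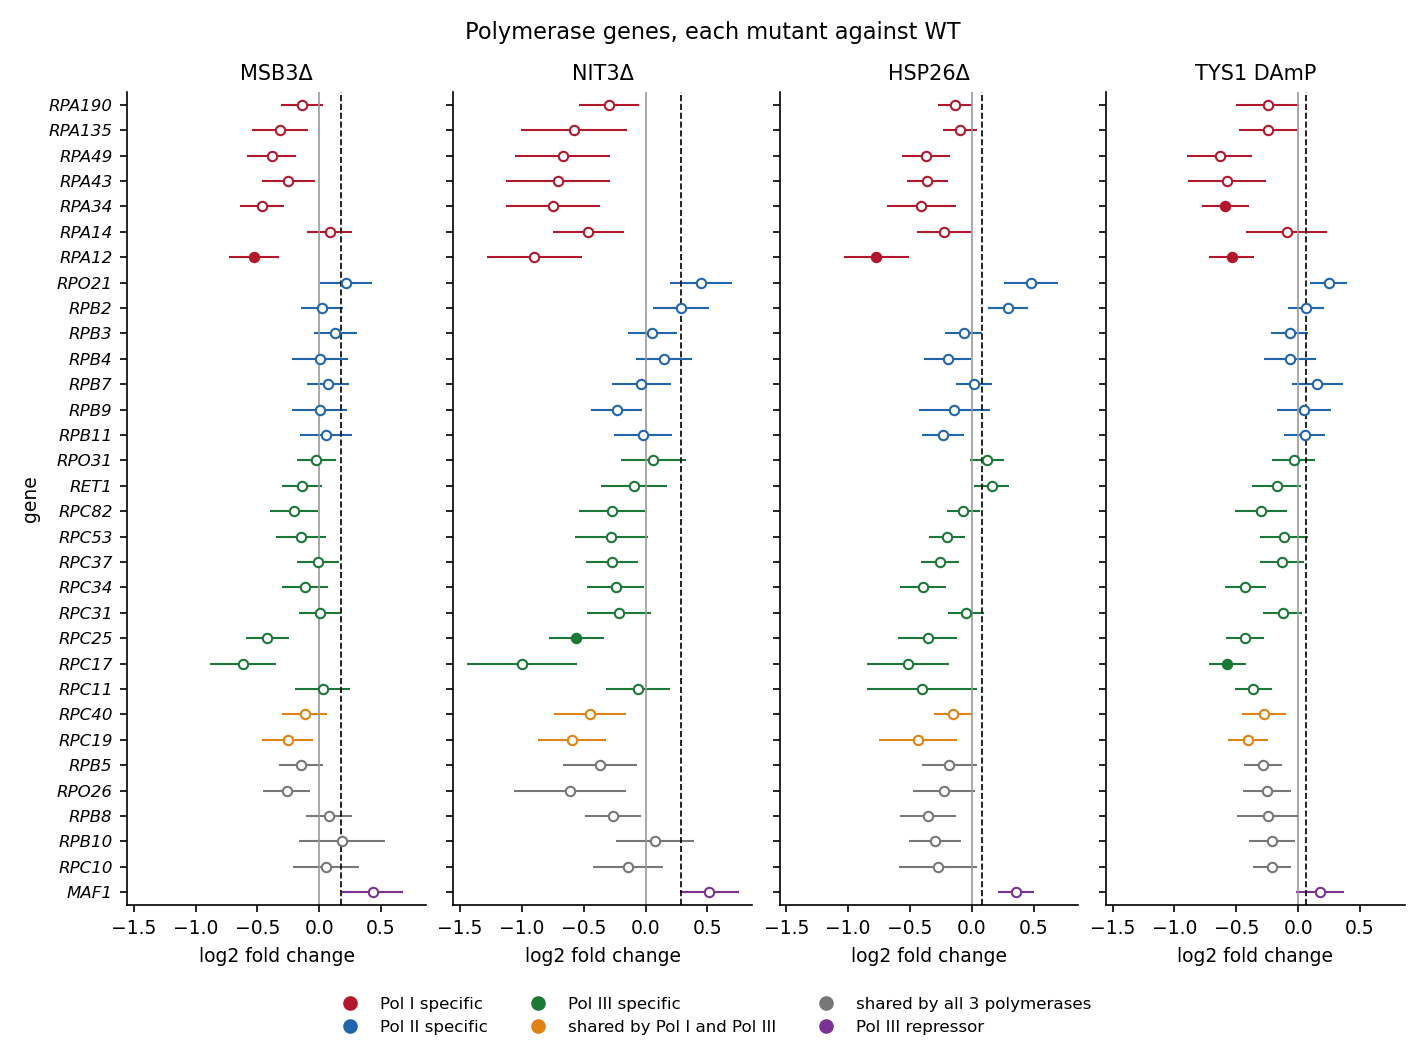
Log2 fold change against WT (horizontal axes, log2(FPKM + 1) scale) with its SE (bars) for the 32 members (vertical axis) in the 4 mutants; filled points passed the thresholds, and the dashed line is the median of all genes tested. The Pol I genes lie to the left of the dashed line in all 4 panels, and 6 points in all are filled.

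Over all 4 mutants RPA12 was again lower. In a fit over the 14 libraries, the mean of the 4 mutants minus WT was −0.68 ± 0.27 (SE, adjusted p = 0.66) for RPA12, the only member called, where 0.594% of all genes tested were called lower and 3.34% higher. No member had an adjusted p under 0.05, against 0.0349% of all genes, and 2 had an unadjusted p under 0.05 (RPA12 and RPC25), against 5.81%. The call was lost without either WT library, where 72 and 79 of all genes were called in place of 225. Without NIT3Δ 1 the members called were RPA12, RPA34 and RPA49, in a fit that called 317 of all genes. Without NIT3Δ 2, MSB3Δ 1 and TYS1 DAmP 1, a choice made after their values were seen, RPA12 was still the only member called, at −0.55 on the log2 scale with an adjusted p of 0.31. All 12 mutant libraries lay below both WT libraries for 5 of 32 members (RPA12, RPA34, RPA49, RPA43 and RPC40), against 2.78% of all genes tested, and above them for 0, against 7.86%. The medians of the mean fold changes were −0.47 for the 7 Pol I genes, −0.19 for the 10 Pol III genes, −0.34 for both Pol I and Pol III subunits, −0.20 for the 5 common subunits and 0.01 for the 7 Pol II genes, against 0.16 for all genes tested. All 7 Pol I and all 10 Pol III genes lay under this 0.16, and 5 of 7 Pol II genes did.

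No difference among the 4 mutants was detectable at this number of libraries. A moderated F-test, which compares the mutants with each other, gave no member with an unadjusted p under 0.05, against 5.31% of all genes. No member had an adjusted p under 0.05 either, the smallest being 0.85, against 0.157% of all genes.

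Among the Pol III genes the stalk subunits had the lowest mean fold changes. RPC17, which pairs with RPC25 in the stalk, stood at 95.3 and 86.9 FPKM in WT, at 41.1, 70.2 and 70.8 in MSB3Δ, at 57.0, 23.5 and 67.8 in NIT3Δ, at 40.5, 97.6 and 64.3 in HSP26Δ and at 61.0, 63.9 and 57.8 in TYS1 DAmP. All libraries except HSP26Δ 2 were below WT, and the range over libraries, 4.15-fold, was the widest of all members. RPC25 stood at 143 and 134 FPKM in WT, at 96.0, 105 and 109 in MSB3Δ, at 105, 78.2 and 101 in NIT3Δ, at 78.7, 137 and 116 in HSP26Δ and at 98.9, 112 and 97.8 in TYS1 DAmP, and again only HSP26Δ 2 overlapped with WT. The log2 fold changes of RPC17 were −0.62 ± 0.27 in MSB3Δ, −0.998 ± 0.45 in NIT3Δ and −0.52 ± 0.33 in HSP26Δ (SE, adjusted p = 0.65, 0.56 and 0.43), which were no calls. RPC34, a subunit of the initiation subcomplex that contacts TFIIIB, was at 134 and 125 FPKM in WT and lay below both in 11 of 12 mutant libraries, down to 84.1 in TYS1 DAmP 1. Its partners RPC82 and RPC31 did so in 7 and 5 of 12.

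The other Pol III genes overlapped with WT more often. RPC53 and RPC37, a heterodimer needed for termination, lay below both WT libraries in 8 and 9 of 12 mutant libraries. RPC11, the zinc-ribbon subunit for RNA cleavage, was at 51.7 and 48.6 FPKM in WT and spread from 20.2 in HSP26Δ 1 to 70.7 in HSP26Δ 2. RPC11 is the shortest of the Pol III genes, and short genes were lowest in HSP26Δ 1, with a median log2 ratio of −0.27. In HSP26Δ 2 that median was 0.09, and the part of length in the RPC11 values was not tested. The catalytic subunits RPO31 and RET1 overlapped with WT in most mutants. RPO31 was at 15.3 and 15.9 FPKM in WT, at 15.7, 14.9 and 15.5 in MSB3Δ, at 17.9, 17.7 and 13.9 in NIT3Δ, at 18.2, 17.4 and 15.9 in HSP26Δ and at 13.0, 16.6 and 16.3 in TYS1 DAmP, on both sides of WT. RET1 was at 28.0 and 34.3 FPKM in WT and between 22.4 and 36.1 in the mutants.

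The assembly subunits shared by Pol I and Pol III were low in most libraries. RPC40 stood at 396 and 411 FPKM in WT, at 363, 390.2 and 363 in MSB3Δ, at 356, 216 and 334 in NIT3Δ, at 361, 389 and 341 in HSP26Δ and at 282, 382 and 341 in TYS1 DAmP. All 12 mutant libraries were below WT, some of them by little, and the log2 fold changes were −0.12 to −0.45 with no call. RPC19, its partner, was at 335 and 313 FPKM in WT and lay below both in 11 of 12 mutant libraries, down to 149.9 in HSP26Δ 1 and 162 in NIT3Δ 2. Its log2 fold change was −0.41 ± 0.16 in TYS1 DAmP (SE, adjusted p = 0.61), which did not reach the fold threshold.

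The 5 common subunits gave no call. RPO26, which helps to hold the enzymes together, was at 967 and 857 FPKM in WT and below both in 9 of 12 mutant libraries, with 325 in NIT3Δ 2 and 561 in HSP26Δ 1. RPB5, which binds DNA ahead of the active site, was at 296 and 284 FPKM in WT and below both in 11 of 12. RPB8 was below both WT libraries in 7, RPC10 in 10 and RPB10 in 5 of 12. The 2 shortest members, RPB10 and RPC10 with coding sequences of 213 bp, were highest in MSB3Δ 1 (491 and 1997 FPKM) and lowest in HSP26Δ 1 (190.5 and 761 FPKM). Between those libraries the log2 difference of long and short genes went from −0.24 to 0.66, and its part in these values was not tested.

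None of the 7 Pol II genes was called, and their median was near WT. RPO21, the largest subunit with the C-terminal repeat domain, stood at 32.2 and 34.2 FPKM in WT, at 46.4, 30.5 and 41.0 in MSB3Δ, at 46.4, 56.7 and 36.0 in NIT3Δ, at 54.3, 34.5 and 54.1 in HSP26Δ and at 36.0, 40.8 and 42.1 in TYS1 DAmP. All mutant libraries except MSB3Δ 2 were above WT. The log2 fold changes were 0.22 ± 0.21, 0.45 ± 0.25, 0.48 ± 0.22 and 0.25 ± 0.15 in MSB3Δ, NIT3Δ, HSP26Δ and TYS1 DAmP (SE, adjusted p = 0.68, 0.56, 0.33 and 0.66), and none was called. RPO21 is the longest member, with 5202 bp, and with the length trend of each library removed, an alternative added after the values were seen, the HSP26Δ value was 0.24. Scaling of the libraries by median ratios gave 0.03 in MSB3Δ and 0.16 in NIT3Δ. RPB2, the second catalytic subunit, was above both WT libraries in 9 of 12 mutant libraries, with the highest value, 71.3 FPKM, in NIT3Δ 2. The assembly subunit RPB3 was the steadiest member, at 125 and 129 FPKM in WT and between 114 and 150.4 in the mutants, a range of 1.32-fold. Its partner RPB11 lay below both WT libraries in 9 and above both in 3 of 12. The stalk subunits RPB4 and RPB7 overlapped with WT in every mutant, and RPB9, the zinc-ribbon subunit, lay below WT in all NIT3Δ libraries (139.8, 118 and 141 FPKM against 156 and 155).

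Counterpart subunits were compared as ratios within a library, and most ratios to the Pol II subunit were low in the mutants. The ratio of RPA190 to RPO21 was 1.44 and 1.20 in the WT libraries and 0.510 to 1.43 in the mutants (median 0.907), below both WT libraries in 11 of 12. That of RPA135 to RPB2 was 1.52 and 1.46 in WT and 0.369 to 1.51 in the mutants, below in 11 of 12. For the zinc-ribbon subunits, RPA12 to RPB9 was 3.13 and 2.66 in WT and 1.26 to 2.72 in the mutants (median 2.03), below in 11 of 12, whereas RPC11 to RPB9 was below in 7 and above in 4 of 12. For the stalks, RPA43 to RPB7 was 1.24 and 1.33 in WT and 0.395 to 1.18 in the mutants, below in 12 of 12. In the Pol III stalk, RPC25 to RPB7 was 1.01 and 1.03 in WT and 0.519 to 1.04 in the mutants (median 0.730), below in 11 of 12. The ratio of RPC17 to RPB4 was 0.368 and 0.367 in WT and 0.0766 to 0.390 in the mutants, below in 11 of 12. That of RPA14 to RPB4 was below in 6 and above in 5 of 12. Set against RPB4, the Pol III stalk ratio was thus low more often than that of Pol I, and set against RPB7 slightly less often. For the assembly subunits, RPC40 to RPB3 was 3.18 and 3.19 in WT and 1.58 to 3.17 in the mutants, below in 12 of 12. For the catalytic subunits of Pol III, RPO31 to RPO21 was below both WT libraries in 10 and above in 2 of 12. These ratios are descriptions, and the same WT libraries serve all of them.

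MAF1, which is no subunit, stood above WT in most libraries without a call. The protein binds Pol III and represses it when nutrients or growth signals fail, and it acts largely through its phosphorylation. MAF1 stood at 62.7 and 65.6 FPKM in WT, at 118, 77.5 and 71.7 in MSB3Δ, at 80.3, 116 and 83.6 in NIT3Δ, at 74.0, 86.3 and 87.4 in HSP26Δ and at 90.2, 66.9 and 63.5 in TYS1 DAmP. It was above both WT libraries in 11 of 12 mutant libraries, with TYS1 DAmP 3 between them, and highest in MSB3Δ 1 and NIT3Δ 2. The log2 fold changes were 0.43 ± 0.25, 0.52 ± 0.24, 0.36 ± 0.14 and 0.18 ± 0.20 in MSB3Δ, NIT3Δ, HSP26Δ and TYS1 DAmP (SE, adjusted p = 0.65, 0.56, 0.31 and 0.79). None reached the fold threshold, although the unadjusted p in HSP26Δ was under 0.05. With libraries scaled by median ratios the MSB3Δ, NIT3Δ and TYS1 DAmP values were 0.25, 0.22 and 0.10.

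The factors that work with the polymerases gave no call in any comparison with limma. These were 9 initiation factors of Pol I, 8 of Pol III and 18 of Pol II, 9 elongation factors of Pol II, 8 assembly and import factors, the mitochondrial polymerase RPO41 with its factor MTF1, and the TATA-binding protein SPT15. None of them had an unadjusted p under 0.05, which 5.05% to 15.6% of all genes had in the 4 mutants. Each list alone, of 1 to 18 genes, is short against such shares, and the lists together were not tested against them. The median mean fold change over the 4 mutants was −0.02 for the Pol I initiation factors, 0.13 for those of Pol III, 0.16 for those of Pol II, 0.11 for the elongation factors and −0.15 for the assembly factors, against 0.16 for all genes tested. The Pol I initiation factors thus lay between the Pol I subunits and all genes.

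Set against the motifs, the mean fold changes of the members differed in direction with the form of the PAC box. Taken here are the 19 subunits of Pol I and Pol III, specific or shared by these enzymes. Their mean fold change over the 4 mutants had a median of −0.23 for the 16 with the 6-letter box before the gene start. For RPA12, RPC17 and RPC11, which lack it, the median was −0.68, although RPC11 itself was at −0.20. For the 7-letter form CGATGAG the order was the other way, with −0.42 for 9 members and −0.20 for the 10 without. The form GCGATGAG gave −0.34 for 6 members (RPA49, RPC82, RPC31, RPC25, RPC40 and RPC19) and −0.20 for the 13 without, and the 6-letter box together with RRPE gave −0.27 for 12 members and −0.20 for the 7 without. Among all genes tested, the median was 0.00 for the 968 with the 6-letter box there and 0.18 for the 4752 without. It was −0.21 for the 375 genes with CGATGAG and 0.17 for the rest, −0.27 for the 229 with GCGATGAG and 0.17 for the rest, and −0.32 for the 200 with both the 6-letter box and RRPE. These are medians with no test. RPA12 and RPC17, the members with the lowest mean fold changes, have none of these forms in the window, and neither has RPC11.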

How the data were processed

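RNA from 14 cultures was sequenced on a BGI platform, and the authors deposited a table of FPKM, with a value for each gene in each library; the submitters' processing notes name HISAT2 2.1.0, Bowtie2, RSEM 1.3.1, DESeq2 1.4.5 and build R64, with no role given. Columns were matched to samples by their names, and all were used. Of 5886 gene names, 5877 matched RefSeq R64 (9 of them by synonyms). FPKM is relative to the rest of a library, so a shift of abundant transcripts moves all others.

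The deposited FPKM values were analysed as log2(FPKM + 1) with limma 3.58.1 in R 4.3.3 (variance trend, robust estimation, two-sided), over genes averaging 1 FPKM or more, with Benjamini-Hochberg adjustment over all of them. Fold changes on this scale understate the change of low genes. Each mutant was fitted with WT alone, and the mean of the 4 mutants and the F-test on all 14 libraries. The thresholds on fold change and p are those of the study. FPKM is not a count, so no count test was run. The code of the fit was checked on simulated data with large known changes and noise independent between genes. Such data lack the shifts that genes of a library share here, so the check does not cover those or small changes. The members and lists were chosen with earlier results of these data known. Named are all members, the perturbed genes, strain markers and, from each other list, up to 3 genes past the thresholds, of which there were none. Tables and figures were made in Python 3.11.15 with pandas 2.3.3, NumPy 2.4.6 and matplotlib 3.10.9. The alternatives comprised median-ratio scaling, a joint fit of the 5 groups, a mean of 10 FPKM as the minimum or none, 0.1 as pseudocount, the replicate number as a block, unlogged FPKM, limma without trend, stricter fold changes, other motif forms, each library left out, and, added after the values were seen, removal of a length trend, the form GCGATGAG and 3 libraries left out together.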

Additional observations from a re-analysis of the deposited data

Results flagged for a closer look

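RPA14, the smaller Pol I stalk subunit, was above both WT libraries in all 3 MSB3Δ libraries and below both in all 3 NIT3Δ libraries, and the mean FPKM differed by 0.52 on the log2 scale between these mutants. The difference was not tested on its own, and the F-test among the 4 mutants gave an adjusted p of at least 0.85 for every member. With 2 or 3 libraries in a group, no group was large enough to look for a library far from the rest.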

How the results depend on the processing

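Of the members' fold changes recomputed under the alternatives, 2511 kept their direction and their side of the threshold, 40 lost a call and 32 gained a call. A further 105 values without a call changed sign, 24 of them with median-ratio scaling, 13 with the length trend removed and 13 without WT 2. No called value changed sign. In MSB3Δ the 1 member called became 3 with median-ratio scaling and 0 in 1 fit over all groups, and ranged from 0 to 2 without single libraries. In NIT3Δ the count of 1 became 4 in the joint fit, 0 without trend and robust estimation and 0 with the length trend removed, and ranged from 0 to 4. Counts of all genes without trend and robust estimation, or with the length trend removed, are not given here. Those changes are thus not shown to be particular to the members. In HSP26Δ it became 0 on unlogged FPKM and ranged from 0 to 8. In TYS1 DAmP the count of 3 became 0 in the joint fit and ranged from 0 to 4. For the mean of the 4 mutants it became 2 with median-ratio scaling and ranged from 0 to 3. Fold changes above 2 or below 0.5 left 0 in all 5. Among the 4 mutants the count of 0 ranged from 0 to 1 without single libraries (RPC11, without HSP26Δ 2). The count of all genes in that fit is not given here either. Between the medians of the fitted fold changes, which differ slightly from means over libraries, the difference of Pol I and Pol II ranged without single libraries from −0.57 to −0.11 in MSB3Δ, −0.94 to −0.35 in NIT3Δ, −0.33 to −0.23 in HSP26Δ and −0.73 to −0.21 in TYS1 DAmP, and for the mean it was −0.49, and −0.25 without MSB3Δ 1, NIT3Δ 2 and TYS1 DAmP 1. That of Pol III and Pol II, −0.18, −0.31, −0.16 and −0.29, ranged from −0.26 to −0.064, −0.41 to −0.15, −0.17 to −0.12 and −0.44 to −0.09, with the values nearest 0 in MSB3Δ, NIT3Δ and TYS1 DAmP without MSB3Δ 1, NIT3Δ 2 and TYS1 DAmP 1. Except where a value or the number of samples shows it, the cause was not tested.

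Median-ratio scaling brought the median of all genes near 0, a shift of −0.18, −0.29, −0.09, −0.07 and −0.16 on the log2 scale in MSB3Δ, NIT3Δ, HSP26Δ, TYS1 DAmP and their mean. Of all genes it called 148 higher and 111 lower in MSB3Δ, in place of 225 and 32. The corresponding counts were 146 and 89 in place of 247 and 29 in NIT3Δ, 247 and 257 in place of 325 and 138 in HSP26Δ, 170 and 116 in place of 191 and 94 in TYS1 DAmP, and 134 and 82 in place of 191 and 34 for the mean. All genes called in the joint fit were 90 in place of 257 in MSB3Δ, 634 in place of 276 in NIT3Δ, 229 in place of 463 in HSP26Δ and 184 in place of 285 in TYS1 DAmP. On unlogged FPKM they were 74, 51, 151, 112 and 86 in the 5 comparisons, and with fold changes above 2 or below 0.5 they were 75, 141, 121, 92 and 86. In the test among the mutants, median-ratio scaling gave 481 in place of 304.

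No clear pairing by replicate number was seen: 11 of 26 same-numbered pairs had a correlation of deviations over 0.1, and 6 of 14 libraries correlated best with their own number. Deviations were taken within groups of 2 or 3 libraries and so depend on each other, and no chance level was set. Whether same-numbered libraries were handled together cannot be settled this way. With the replicate number as a block, the members called were RPC17 in MSB3Δ (with an adjusted p under 0.05, as had 608 of the 5727 genes) and in NIT3Δ, 2 in HSP26Δ (RPA12 and RPC19), 2 in TYS1 DAmP (RPA49 and RPC17) and RPA12 for the mean. All genes called under the replicate block were 1069, 681, 497, 513 and 378. The third mutant replicates have no WT partner there.

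The lowest FPKM of a member was 13.0, for RPO31, a long gene of 4383 bp. FPKM is per length, so a short gene has fewer fragments at a given FPKM. By FPKM and length, the fewest fragments of any member were those of RPC11 (333 bp) in HSP26Δ 1, at 20.2 FPKM. How far depth limits the values of short members was not tested, since FPKM gives no read counts. With 2 WT libraries, single libraries decide most calls.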
